A study of Mus musculus with 18 samples.

Results

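The mouse genes for keratins (Krt) and keratin-associated proteins (Krtap) were followed through DNA methylation libraries of embryonic stem (ES) cells that carry different forms of the maintenance methyltransferase DNMT1. Members were the autosomal protein-coding genes of the GENCODE M21 annotation whose symbol is Krt with a number or begins with Krtap, and there were 110 of them among 20807 such genes. The members comprise 53 Krt genes, of which 27 lie on chromosome 11 and 26 on chromosome 15, and 57 Krtap genes on chromosomes 1, 7, 10, 11 and 16. For each gene, the CpGs of the gene body and of 2 kb on either side were used if they had at least 1 read in all 18 libraries. A gene's level in a library is the percentage of reads at these CpGs that were methylated. Genes with at least 3 such CpGs were tested, which kept 101 of the 110 members. The 9 members left out, Krtap9-3 on chromosome 11 and 8 Krtap genes of chromosome 16, had between 0 and 2 usable CpGs each. Gene levels and calls are therefore about the 101, cluster levels include the few usable CpGs of the others, and promoter sequences are counted over all members that matched.

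All cells were Dnmt1-knockout mouse ES cells, transfected with a pPyCAGIP vector and selected with puromycin into stable lines. The vector carried WT DNMT1 or DNMT1 with tryptophan-to-alanine substitutions, namely W796A, W465A, W464A/W465A, W465A/W796A or W464A/W465A/W796A. Each of these 6 groups has 3 libraries labelled as biological replicates. The labels do not say whether these are separate stable lines, so the spread between them may be partly technical. W464 and W465 lie in the replication foci targeting region of DNMT1 and W796 in its first bromo-adjacent homology domain. The assay was eRRBS, an enhanced form of reduced representation bisulfite sequencing, in which restriction enzymes cut the genome and bisulfite turns unmethylated cytosine into uracil. Cells that received the empty vector were not analysed here. No RNA was measured, so the ES cell label was not checked against marker expression.

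Keratins are the intermediate filament proteins of epithelia. Type I and type II keratins pair into filaments, and their genes sit in a cluster on chromosome 11 (type I) and another on chromosome 15 (type II, with the type I gene Krt18 at its edge). Krt8 and Krt18 form the filament pair of simple epithelia, Krt5 and Krt14 that of the basal layer of the epidermis, Krt1 and Krt10 that of its upper layers, and a further set builds hair and the root sheath around it. Keratin-associated proteins, encoded by small genes in tight clusters, bind hair keratins into the matrix of the hair shaft. In ES cells most of these genes are tissue-specific genes of another lineage, and CpG-poor genes of that kind are commonly methylated.

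The sequences shown are promoters, from 250 bases before to 50 bases after the start in RefSeq (build GRCm38.p6), 5′ to 3′ on the gene's strand. Gene levels and calls come from the whole gene windows. The RefSeq table held a promoter for 87 of the 110 members. The first pair are the promoters of simple-epithelial genes, shown because they had the lowest levels, with CpGs in capitals.
Krt18, chr15:102027966-102028265, plus strand: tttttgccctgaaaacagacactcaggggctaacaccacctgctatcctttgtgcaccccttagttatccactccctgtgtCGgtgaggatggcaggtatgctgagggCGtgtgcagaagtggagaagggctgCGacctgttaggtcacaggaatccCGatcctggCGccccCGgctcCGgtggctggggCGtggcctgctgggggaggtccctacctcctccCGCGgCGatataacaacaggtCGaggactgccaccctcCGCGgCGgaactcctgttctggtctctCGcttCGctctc
Krt8, chr15:102004293-102004592, minus strand: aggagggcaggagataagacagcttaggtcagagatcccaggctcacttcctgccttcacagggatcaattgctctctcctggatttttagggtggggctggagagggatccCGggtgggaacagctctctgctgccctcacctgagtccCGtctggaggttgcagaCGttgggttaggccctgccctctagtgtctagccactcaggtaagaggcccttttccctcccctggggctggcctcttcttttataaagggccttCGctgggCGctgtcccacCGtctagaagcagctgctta
Of the 17 CpGs of the Krt18 promoter 15 were usable, and their level was 0.383%, 1.66% and 1.11% in the 3 WT libraries. Of the 6 CpGs of the Krt8 promoter 5 were usable, and their level was 0%, 7.22% and 17.1%. The next pair belong to genes of skin appendages, shown as examples of methylated promoters with several usable CpGs.
Krt28, chr11:99374854-99375153, minus strand: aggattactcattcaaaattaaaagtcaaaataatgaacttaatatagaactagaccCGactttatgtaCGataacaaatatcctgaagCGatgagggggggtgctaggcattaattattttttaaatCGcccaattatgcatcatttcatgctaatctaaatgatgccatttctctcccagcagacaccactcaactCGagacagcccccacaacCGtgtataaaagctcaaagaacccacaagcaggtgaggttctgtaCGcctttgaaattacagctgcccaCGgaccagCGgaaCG
Krtap24-1, chr16:88612230-88612529, minus strand: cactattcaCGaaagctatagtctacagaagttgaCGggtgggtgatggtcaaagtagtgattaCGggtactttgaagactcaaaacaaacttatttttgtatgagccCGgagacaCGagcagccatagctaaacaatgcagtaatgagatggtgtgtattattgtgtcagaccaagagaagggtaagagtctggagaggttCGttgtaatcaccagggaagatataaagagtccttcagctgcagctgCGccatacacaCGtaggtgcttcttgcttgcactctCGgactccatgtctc
The 7 usable CpGs of the Krt28 promoter had levels of 51.6%, 61.9% and 53.2% in WT, and 18.4%, 14.5% and 15.0% in W465A. The 8 usable CpGs of the Krtap24-1 promoter had levels of 84.6%, 85.9% and 74.1% in WT, and 44.9%, 29.4% and 44.6% in W465A. At both promoters every W465A library lay below every WT library. The last one, of a gene that retained little methylation in W465A, holds 0 CpGs, so its level comes from the gene body and flanks. Here the capitals mark the letters TATAAA, which form the core of a TATA box. The first match lies before the start and the last one after it.
Krtap4-9, chr11:99784950-99785249, plus strand: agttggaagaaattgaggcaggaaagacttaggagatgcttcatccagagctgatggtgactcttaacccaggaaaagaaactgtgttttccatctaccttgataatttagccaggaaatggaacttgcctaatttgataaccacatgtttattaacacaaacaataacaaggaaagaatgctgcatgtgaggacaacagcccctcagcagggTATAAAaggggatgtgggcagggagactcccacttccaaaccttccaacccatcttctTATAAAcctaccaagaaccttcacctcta
The median member promoter had 3 CpGs, against 7 over all 32851 promoters of the table. At least 15 CpGs occurred in 2 member promoters, those of Krt18 and Krt7, and in 34.6% of all promoters. The hexamer TATAAA, on either strand, was in 61 of the 88 member promoters (69.3%; Krt13 has 2 promoters) and in 13.6% of all. It was in 42 of the 51 Krtap promoters and in 19 of the 37 Krt promoters. The search used the letters alone, so a match is a description of sequence and not a mapped site.

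Libraries held between 58606197 and 136341106 autosomal CpG calls, of which 26228 to 71345 fell on usable CpGs of the keratin windows. These windows hold 10125 CpGs, of which 3315 (32.7%) were usable, and 169 of those lie in the windows of more than 1 gene. A tested member had a median of 27 usable CpGs and 231 reads per library, whereas the median gene had 127 CpGs and 1579 reads, so single members are less precisely measured. Chromosome 11 took between 9.18% and 9.77% of the calls in WT replicates 1 and 2, W465A/W796A replicates 1 and 3 and W464A/W465A/W796A replicate 3, and between 6.59% and 7.73% in the others. The share of chromosome 15 was between 4.03% and 4.29% in every library, and both keratin clusters are therefore given side by side.

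With WT DNMT1 the keratin genes were highly methylated. Their median level was 75.0%, against 48.9% over all 20109 genes tested, and 69 of the 101 members were at 70% or above, which holds for 4238 of all genes. The Krt cluster of chromosome 11 had levels of 55.8%, 73.4% and 69.5% in the 3 WT libraries, and that of chromosome 15 had 52.2%, 69.3% and 68.6%. Replicate 1 was the lowest WT library in both, as it was for 95 of the 101 genes. Over all tested gene windows that library was also the lowest of WT, at 36.9% against 47.2% and 47.4%. The Krtap clusters lay at or above the Krt clusters, from 70.9% ± 9.41 (SD, n = 3) on chromosome 7 and 71.8% ± 10.1 (SD, n = 3) on chromosome 11 to 78.9% ± 9.40 (SD, n = 3) on chromosome 16. Within each WT library every Krtap cluster was above both Krt clusters, a difference that was not tested. The highest members were Krtap22-2 at 89.5% ± 3.07 (SD, n = 3) and Krtap24-1 at 88.6% ± 1.502 (SD, n = 3), both on chromosome 16.

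**Figure D1:**
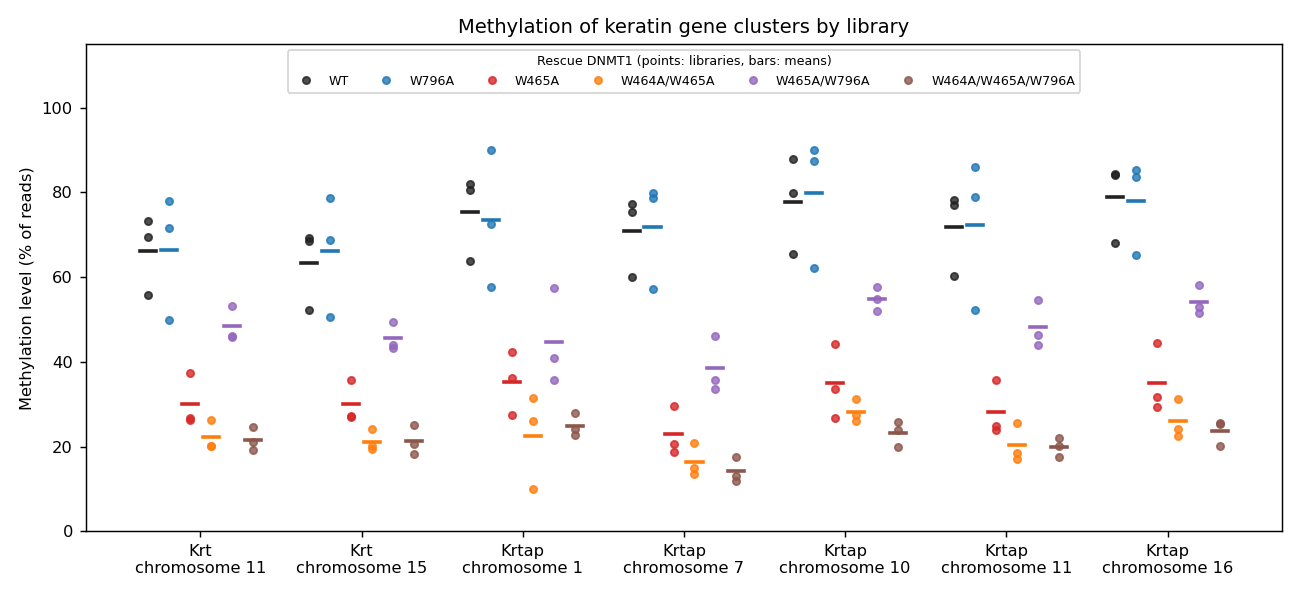
Methylation level (% of reads) of each family and chromosome cluster; each point is a library and each bar the mean of the 3 libraries of a group. In every cluster the W465A, W464A/W465A and W464A/W465A/W796A libraries lie below all WT libraries, and W796A overlaps WT.

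By role, the keratins of simple epithelia stood lowest. Among 5 of them, Krt7, Krt8, Krt18, Krt19 and Krt20, the median WT level was 44.9% and 1 was at 70% or above. The median was 73.2% among 18 keratins of stratified epithelia, 72.2% among 8 of the inner root sheath and companion layer, and 79.3% among 15 of the hair shaft. This grouping was made after the values were seen and carries no test. Krt8 was at 31.7%, 44.4% and 41.2% in WT, and Krt18 at 18.5%, 38.7% and 46.3%. Krt19, which simple epithelia also express, was at 36.5%, 54.8% and 43.3%, and Krt7, found in glandular and ductal epithelia, at 41.9%, 54.4% and 49.5%. Krt20, typical of gut epithelium, was the exception among the 5, at 73.59% on average. In the epidermal pairs the partners were not alike. Basal Krt5 was at 75.0%, 80.6% and 81.3%, above every WT value of its partner Krt14, at 49.0%, 68.1% and 56.0%. Suprabasal Krt1 was at 58.7%, 79.3% and 67.4%, while its partner Krt10 was the lowest of the 101 members, at 7.31%, 23.9% and 21.1%. The inner root sheath genes Krt71 and Krt25 were at 67.2% ± 6.52 (SD, n = 3) and 79.2% ± 9.60 (SD, n = 3), and the hair cortex gene Krt31 at 81.9% ± 10.3 (SD, n = 3). Krt85, another hair cortex keratin, is not a member under the annotation used and was not measured.

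**Figure D2:**
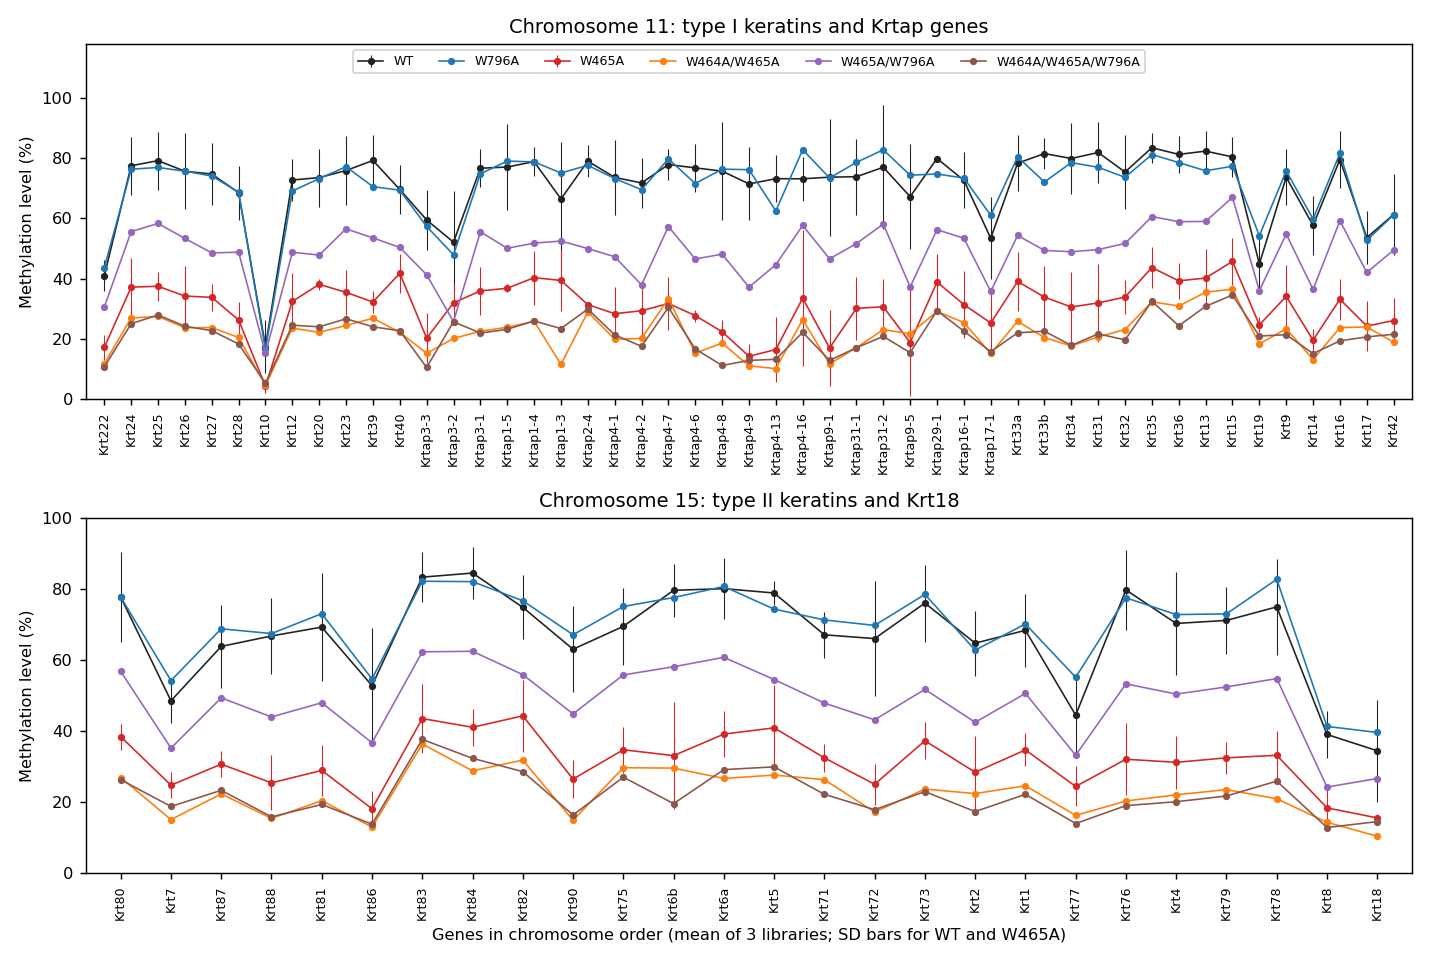
Methylation level (%) of each tested gene of chromosomes 11 and 15 in chromosome order; points are group means of 3 libraries and bars the SD in WT and W465A. Krt10 is the lowest gene of chromosome 11 in every group, and the low WT levels of Krt19, Krt8 and Krt18 stand out less in the mutants with the lowest levels.

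In the genes with low levels, the low methylation lay in short stretches. Of 430 tiles of up to 1 kb in the windows of 92 members, 14 were under 20% in WT, 37 under 50% and 117 under 70%. A tile in the windows of more than 1 gene counts once, as the one at 6.87% shared by Krt17 and Krt42. The 14 tiles hold a median of 21 CpGs, against 13 in the other tiles. Of them 12 overlap a keratin exon, which was not compared with the other tiles. An annotated transcript start lies in 3 of the 14 and in 87 of the other 416. At Krt8 the tile around the start was at 24.0% ± 7.72 (SD, n = 3), the next kb into the gene at 3.43% ± 2.30 (SD, n = 3), and the tile centred 2982 bp inside at 89.6% ± 3.95 (SD, n = 3). At Krt18 the tile just past the start was at 7.28% ± 4.07 (SD, n = 3), and the tile centred 1320 bp inside at 76.8% ± 19.99 (SD, n = 3). At Krt19 the stretch centred 3165 bp from the annotated start was at 6.91% ± 2.84 (SD, n = 3), between tiles at 60.2% and 66.2%. At Krt10 the low stretch lay inside the gene, at 2.75% ± 2.19 (SD, n = 3) around 2864 bp, where another transcript start is annotated, and at 2.57% ± 2.34 (SD, n = 3) 1 kb further on. At Krt77, an epidermal keratin, the last 2 tiles were at 15.3% ± 6.90 (SD, n = 3) and 14.9% ± 4.596 (SD, n = 3), while the tile at its start was at 71.2% ± 17.4 (SD, n = 3). Krt222 had its low tiles at the start, at 16.9% ± 6.37 (SD, n = 3), and in its downstream flank, at 0.192% ± 0.208 (SD, n = 3). Of the 111 usable CpGs of Krt222, 32 also lie in the window of Smarce1, a chromatin remodelling gene.

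**Figure D3:**
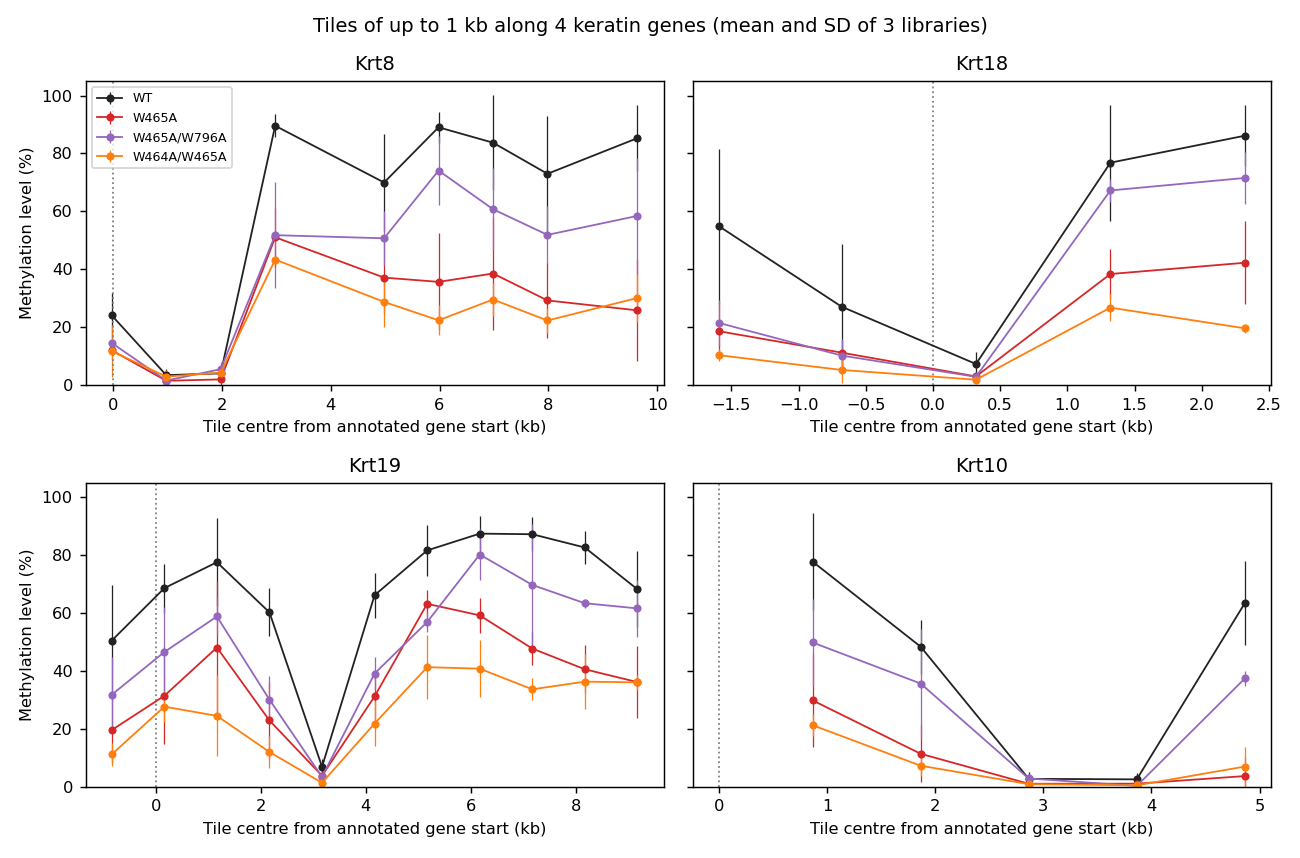
Methylation level (%) of tiles of up to 1 kb against the distance of their centre from the annotated gene start (kb), as mean and SD of 3 libraries, for WT and 3 mutants; the dotted line marks the start. The tiles under 10% in WT are low in all 4 groups, and the mutants separate from WT in the flanking, methylated tiles.

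Crowded CpGs were the less methylated ones. The 288 usable CpGs with more than 20 CpGs within 250 bp, each counting itself, were at 32.6% ± 9.36 (SD, n = 3) in WT. Those with counts of 1 to 5, 6 to 10 and 11 to 20 were at 73.4%, 74.7% and 69.8%. Exonic CpGs were at 63.2% ± 9.73 (SD, n = 3), intronic ones at 68.6% ± 8.90 (SD, n = 3), and those of the upstream and downstream flanks at 68.5% and 69.7%. The 217 CpGs in repeat-masked sequence were at 68.9% ± 10.8 (SD, n = 3), against 65.9% ± 9.37 (SD, n = 3) outside it. Within each WT library they were the higher ones, at 56.6% against 55.1%, 76.4% against 72.3% and 73.8% against 70.2%. That difference was not tested. WT level and CpGs per kb had a Spearman correlation of -0.17 across the 101 members and of -0.35 across the 75 with at least 10 usable CpGs, as a description, since neighbouring genes share libraries and some CpGs.

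W465A, the substitution in the targeting region, was compared with WT to ask how much methylation the keratin genes keep under a DNMT1 altered there. The Krt cluster of chromosome 11 fell from the WT values above to 37.4%, 26.9% and 26.3%, and that of chromosome 15 to 35.7%, 26.9% and 27.3%. No W465A library reached the lowest WT library in either cluster. On the chromosome 15 cluster W465A kept 47.3% of the WT level and on the chromosome 11 cluster 45.6%, and the part of the uneven share of chromosome 11 calls was not tested. Of the 101 members, 99 were called lower, against a background of 89% of all genes lower. A call here means a Benjamini-Hochberg adjusted p under 0.05 in a quasi-binomial F test over all genes and a difference of at least 10 points between group levels from pooled reads. A gene with a pooled WT level under 10% cannot be called lower, which keeps the background down. Without that minimum, an unadjusted p under 0.05 in the same test was reached by 99 members and by 19928 of all 20109 genes. All W465A libraries lay below all WT libraries at 97 members, at a background of 98.2%. By the unadjusted p and by the libraries not overlapping, members did not exceed the background. The 2 members that were not called, Krtap3-2 and Krtap6-5, had 4 and 3 usable CpGs. The median pooled difference was -42.4 points for members and -29.7 points for all genes, and the median share of the WT level that was kept was 43.9% and 40.4%. Members thus lost more points from a higher start and kept a similar share. Without WT replicate 2 the count of calls was 87, with the share of all genes not given here. With an offset for the level of each library, so that a call is a departure from the change of all genes, 34 members were called lower, at a background of 21.8%.

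With W464A/W465A, in which both neighbouring tryptophans are replaced, the clusters were lower still in mean level. The chromosome 11 Krt cluster was at 20.1%, 26.2% and 20.2%, and the chromosome 15 one at 19.4%, 24.2% and 20.1%. Again 99 members were called lower than WT, at a background of 90.8%, and the median pooled difference was -51.4 points. The W464A/W465A libraries all lay below all WT libraries at 101 members, at a background of 99.2%. With W464A/W465A/W796A the chromosome 11 cluster was at 21.1%, 24.7% and 19.2% and the chromosome 15 cluster at 20.6%, 25.1% and 18.3%. There too 99 were called lower, at a background of 91.1%, with a median difference of -52.8 points. The triple mutant libraries all lay below all WT libraries at 100 members, at a background of 99.3%. With the offset for the level of each library, 63 members were called with W464A/W465A, against 26.5% of all genes. With the triple substitution 65 were called under that offset, against 27.1% of all genes. These and the other comparisons with WT share the 3 WT libraries. Directly against W465A, W464A/W465A had a lower mean at 95 of the 101 members and a median pooled difference of -9.18 points (all genes -4.20). None of the 101 was called, at a background of 0% in either direction, and 1 had an unadjusted p under 0.05 in the quasi-binomial test. Limma and edgeR called 0 as well, with 10 and 9 members at an unadjusted p under 0.05. The absence of calls does not show that levels were equal. All 3 W464A/W465A libraries lay below all 3 W465A libraries in both Krt clusters, by a narrow margin on chromosome 11 (26.2% against 26.3%). The same held for 32 of the 101 members, at a background of 24.2%, and the opposite for 0, at a background of 0.0796%. Adding W796A to W464A/W465A gave a median difference of -1.26 points, with 0 members called (background 0%) and 0 at an unadjusted p under 0.05 by the quasi-binomial test, limma or edgeR. All 3 libraries lay below the other 3 at 6 members (background 2.25%) and above them at 0 (background 1.37%).

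**Figure D4:**
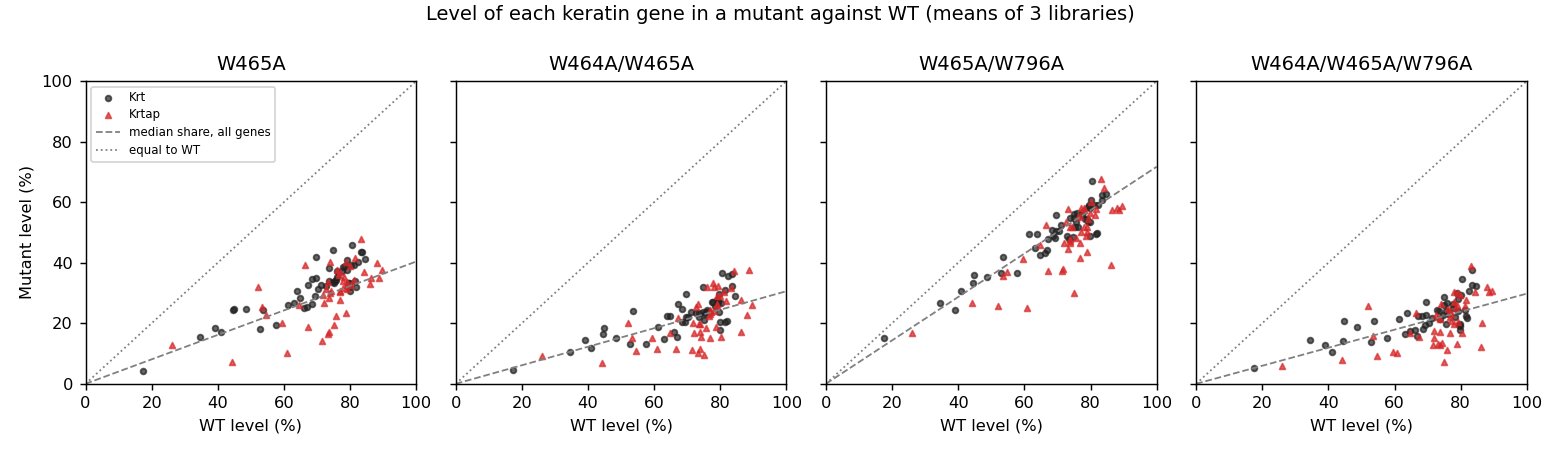
Mean level (%) of each tested member in a mutant (vertical) against WT (horizontal), with 1 panel per mutant; circles are Krt genes and triangles Krtap genes. The dashed line is the median share of the WT level kept by all genes. In W465A it stands at 40.4%, with a median share of 45.6% for Krt genes and 40.9% for Krtap genes, and the points farthest below it are Krtap genes.

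Loss was deepest in some Krtap genes. The Krtap5 genes of chromosome 7 kept 32.5% of their WT level in W465A, 23.2% in W464A/W465A and 20.02% with all 3 substitutions, over 40 usable CpGs of 5 genes. Their cluster was at 60.1%, 75.3% and 77.3% in WT and at 29.7%, 18.7% and 20.7% in W465A, with no overlap. Among these genes Krtap5-5 was at 7.50%, 6.82% and 6.78% in W465A, against 32.0%, 53.6% and 47.1% in WT, over 5 CpGs. Krtap5-4, the member of the cluster with the most usable CpGs, kept 45.1%, so the 5 genes were not uniform. On chromosome 11, Krtap4-9 (13 usable CpGs) was at 57.5%, 79.0% and 78.0% in WT and at 18.8%, 10.6% and 13.0% in W465A. Its pooled difference of -60.0 points was the most negative of the members with at least 10 usable CpGs (adjusted p 3e-05, quasi-binomial F test). Krtap4-13 (11 CpGs) was at 65.7%, 72.7% and 81.2% in WT and at 28.0%, 14.3% and 6.98% in W465A, and Krtap4-8 (12 CpGs) kept 29.5%. Among members with at least 10 usable CpGs, Krtap4-6 fell furthest in W464A/W465A, by 65.4 points, and kept 19.8% of its WT level. The hair keratin Krt34 lost 65.1 points there, from 66.5%, 85.4% and 88.0% to 18.8%, 22.9% and 11.2%. Krtap genes repeat near-identical sequence within a cluster, and the handling of reads that fit several copies is not given in the sources used here, so values of a single Krtap gene are uncertain in that respect.

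Among members with at least 10 usable CpGs, the smallest differences were at genes with low WT levels. Krt10 fell by 14.1 points in W465A, from the WT values above to 6.82%, 2.79% and 3.19%, and kept 24.5% of its level (adjusted p 0.00115, quasi-binomial F test). Krt18 went to 14.9%, 15.1% and 16.8%, and Krt8 to 25.1%, 15.4% and 14.7%. At Krt18 the highest W465A library lay below the lowest WT library, and at Krt8 as well. Krt19 and Krt77 each kept 54.9%. With the offset for the level of each library the W465A difference changed direction at Krt7, Krt8, Krt18, Krt19, Krt77, Krt222 and Krtap17-1, to between 0.194 and 3.59 points, with adjusted p of 0.303 or higher in the quasi-binomial F test. Across the 101 members, the share of the WT level kept in W465A had a Spearman correlation of 0.42 with CpGs per kb, and in W464A/W465A/W796A one of 0.54. Across the 75 members with at least 10 usable CpGs these were 0.33 and 0.46. These are descriptions over genes that share the same libraries.

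W465A/W796A, which carries 1 substitution in each domain, was intermediate. The chromosome 11 Krt cluster was at 53.1%, 46.0% and 45.9%, and the chromosome 15 cluster at 49.4%, 43.9% and 43.2%, below all 3 WT libraries and above all 3 W465A libraries in both. Members kept a median of 69.5% of the WT level (all genes 71.7%). Against WT 64 members were called lower, at a background of 53.6%. An unadjusted p under 0.05 in the quasi-binomial F test was reached by 74 members and by 14575 of all 20109 genes. All W465A/W796A libraries lay below all WT libraries at 71 members, at a background of 63.9%. The count of calls rests on single libraries. It fell to 0 when WT replicate 2, or W465A/W796A replicate 2 or 3, was left out, and was 28 without WT replicate 3, and the share of all genes called fell to 0% in the first 3 of these cases. Among members with at least 10 usable CpGs the most negative pooled differences were -36.7 points at Krtap4-9 and -36.6 points at Krtap28-13 of chromosome 1. Krtap28-13 went from 64.1%, 81.8% and 84.7% in WT to 51.4%, 46.2% and 26.9%.

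Directly against W465A, the members were higher with W465A/W796A. The mean was higher at 100 of the 101 genes, and the median pooled difference was 19.1 points, against 14.9 over all genes. Called higher were 35 members, fewer than the background of 58.8% of all genes. The libraries of the groups did not overlap at 72 members, all higher, at a background of 87.9%, with 0 lower, at a background of 0.0199%. The members called had a median of 43 usable CpGs and the others 19, so calls went to the better covered genes. The part of coverage in this count was not tested. By cluster, the calls were 16 of 27 Krt genes on chromosome 11, 11 of 26 on chromosome 15, 5 of 22 tested Krtap genes on chromosome 11, 2 of 16 on chromosome 16, 1 of 5 on chromosome 7 and 0 of the 5 on chromosomes 1 and 10. Krt75, of the companion layer, was at 41.7%, 28.9% and 33.8% in W465A and at 59.1%, 56.4% and 52.1% in W465A/W796A, with no overlap. Krt14 went from 23.9%, 18.1% and 16.6% to 48.0%, 32.0% and 29.3%. Krt5 did not pass, with 53.6%, 29.9% and 39.4% against 56.5%, 56.1% and 51.0%, where the libraries overlapped. Limma called 56 members (65.1% of all genes) and edgeR 57 (64% of all genes). With the offset for the level of each library 0 members were called (0.00497% of all genes). The count was 0 without W465A replicate 3 or W465A/W796A replicate 1, 4 without W465A replicate 2, 21 and 23 without W465A/W796A replicates 3 and 2, and 66 without W796A replicate 1. For these counts the shares of all genes are not given here.

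Whether W465A and W796A add up was asked through the difference of differences, that is the change by W796A on W465A minus its change on WT. Its median over members was 20.1 points (all genes 15.7). The test was called higher for 6 members, at a background of 37.5% of all genes, namely Krt28, Krt10, Krt39, Krtap4-13, Krt13 and Krt42. Krt28, of the inner root sheath, had levels of 59.0%, 76.8% and 69.9% in WT, 55.3%, 78.8% and 72.2% in W796A, 33.1%, 23.8% and 21.9% in W465A, and 54.9%, 43.5% and 48.0% in W465A/W796A. W796A thus overlapped WT, while each W465A/W796A library lay above each W465A library. Krt13, a keratin of mucosal epithelia, went from 51.2%, 36.4% and 33.0% in W465A to 64.04%, 61.7% and 51.3% in W465A/W796A. The departures of the 6 genes lay between 13.9 points for Krt10 and 37.2 points for Krtap4-13. The adjusted p in the quasi-binomial F test was between 0.0313 for Krt10 and 0.0475 for Krtap4-13. Limma called 0 members (16 at an unadjusted p under 0.05), edgeR 7, and a fit of the 4 groups concerned alone 0. Limma and that fit called 0% of all genes. In the main fit the count was 0 without WT replicate 2, W796A replicate 1, W465A replicate 2, W465A replicate 3 or W465A/W796A replicate 1, 1 without WT replicate 3, 11 without W465A replicate 1, 25 without WT replicate 1 and 45 without W796A replicate 2. For edgeR and for the fits without 1 library the shares of all genes are not given here.

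**Figure D5:**
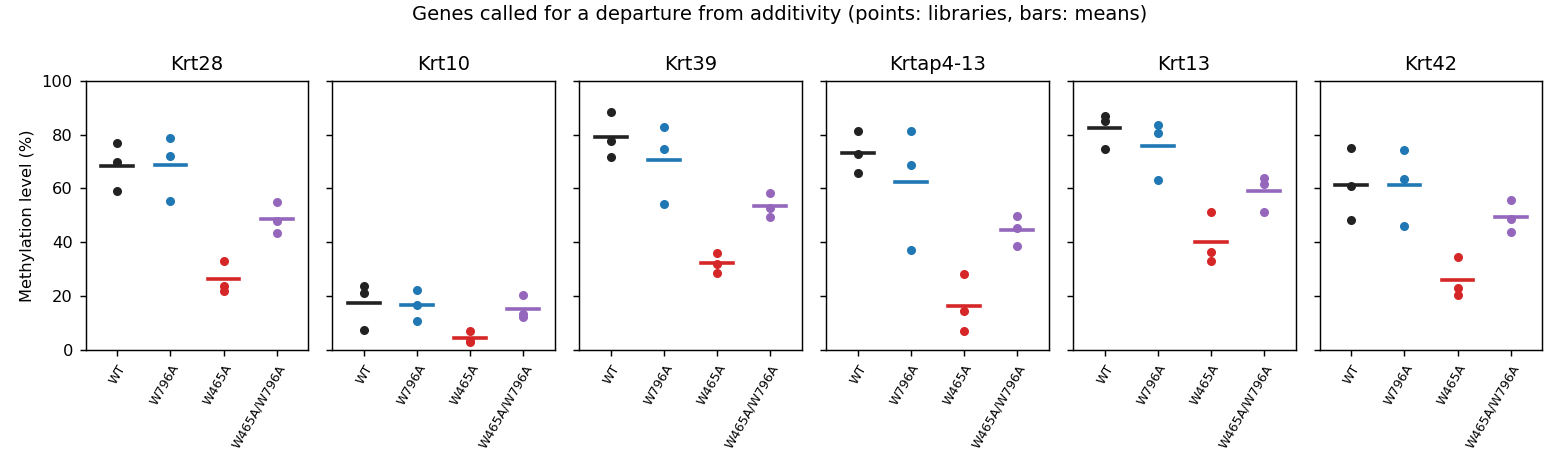
Methylation level (%) of the 6 members called for a departure from additivity; points are libraries and bars means of 3, for WT, W796A, W465A and W465A/W796A. In all 6 panels W796A overlaps WT, and the W465A/W796A libraries lie above the W465A libraries.

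With W796A alone the Krt clusters had means near those of WT and a wider spread between libraries. The chromosome 11 Krt cluster was at 49.8%, 78.0% and 71.5% and the chromosome 15 cluster at 50.7%, 78.7% and 68.8%, reaching beyond the WT range on both sides. The mean was above WT at 52 of the 101 members, and the median pooled difference was -1.27 points. None was called, at a background of 0% in either direction, and 0 members had an unadjusted p under 0.05 in the quasi-binomial test (1 by limma and 1 by edgeR, with no calls). The W796A libraries lay wholly above WT at 1 member (background 0.512%) and wholly below at 0 (background 0.328%). The members with the largest differences either way were Krtap28-13, at 45.3%, 85.7% and 64.8%, and Krtap17-1, at 38.5%, 78.2% and 66.6% against 37.7%, 61.0% and 61.6% in WT, among those with at least 10 usable CpGs. At Krtap28-13 and Krtap17-1 the W796A libraries overlapped WT. Replicate 1 was the lowest W796A library at 98 of the 101 members. Over all tested gene windows that library was also the lowest of W796A, at 33.1% against 47.8% and 48.0%. With an SD of 14.8 points for W796A in the chromosome 11 cluster, differences of a few points were not detectable here. Larger ones can be missed too. In simulated counts over all genes, levels were lowered in the W465A group. Of 100 genes lowered by 20 points 28 were called, and of 100 lowered by 40 points 69. No lowering was simulated in W796A, so these rates need not hold for members there. A count of 0 calls thus does not show that levels were equal.

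Other genes of the cornified layer, of filament anchoring and of skin and hair regulation were read from the same fit. The list also held Vim, Des, Nes, Gfap and Ina, which encode intermediate filament proteins other than keratins. Of the 44 listed 43 were tested. Against WT none was called in W796A, 35 were called lower in W465A and 18 in W465A/W796A. With W464A/W465A and with the triple substitution 36 each were called lower, all at the backgrounds given above. The direct test of W465A/W796A against W465A called 25 of the 43 higher, at a background of 58.8% of all genes, and 0 lower. Genes with high WT levels included Flg (filaggrin, of the cornified layer) at 81.65%, and Trp63, the master regulator of stratified epithelia, at 78.7%. These were at 40.4% and 34.5% in W465A, and both were called. Of the 8 genes not called in W465A, Sprr1a, a cornified envelope gene, was at 57.0% in WT, and the other 7 were at 14.2% or less, such as Lor (loricrin) at 3.62%, Tchh (trichohyalin) at 2.18%, Klf4 at 5.23% and Vim at 14.2%.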

How the data were processed

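Methylation of CpGs was measured by eRRBS in 18 libraries, 3 in each of 6 groups. The authors deposited raw counts per CpG, with methylated and all calls for every library (21867550 CpGs listed). Per the submitters' processing notes the tools were cutadapt 1.2.1, Bismark 0.18.1 and Bowtie 1.2 and the builds mm10 and GRCm38. Duplicate removal, filters and the handling of reads with several matches are not given in the sources used here. The listed CpG positions were identical to those of the reference on the 6 chromosomes used for sequence.

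Counts were summed over the usable CpGs of each gene window (GENCODE M21) and library, and a level is methylated over all calls in percent. A quasi-binomial logistic model with the 6 groups, 12 residual degrees of freedom and an overdispersion squeezed across genes was fitted to 20109 genes with at least 3 usable CpGs. Each comparison was tested with an F test on the deviance, two-sided, with Benjamini-Hochberg adjustment over all genes. A call needs an adjusted p under 0.05 and a pooled difference of at least 10 points. The p-values measure the spread between these libraries. The script was tested on simulated data in which genes were lowered in the W465A group. It called 28 of 100 genes lowered by 20 points and 69 of 100 lowered by 40 points. Python 3.11.15 with numpy 2.4.6, scipy 1.17.1 and pandas 2.3.3 was used, and R 4.3.3 with limma 3.58.1 and edgeR 4.0.16 for alternatives.

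The members, gene lists and tests were chosen with earlier results of these data known. The text names keratins by role (and Krt77 from an earlier result), the member of each cluster with most usable CpGs, the 3 most and 3 least negative members with at least 10 usable CpGs in each comparison with WT, and up to 5 members called in each of the comparisons of W796A, W465A/W796A against W465A and additivity. Other members are named where a count of 5 or fewer, a low stretch or a promoter called for it, and those were chosen after their values were seen.

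Same-numbered libraries of WT and W796A deviated together from their group means across genes (r = 0.567, 0.393 and 0.270), whereas in every other pair among the 15 pairs of groups at least 1 correlation was 0.1 or lower. Same-numbered libraries deviated in opposite directions in WT and W465A (r = -0.504, -0.321 and -0.117) and in W796A and W465A (r = -0.559, -0.286 and -0.155). So they did in WT and W465A/W796A (r = -0.305, -0.219 and -0.206) and in W796A and W465A/W796A (r = -0.409, -0.184 and -0.166). What the numbers mark is not stated in the labels. A fit of WT and W796A with the replicate number as a block called 0 members, as did the unblocked fit. Alternatives varied the coverage minimum, the CpGs and window used, the minimum of CpGs and of difference, the squeezing, the samples fitted, the tool, the scaling, the block and each library.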

Additional observations from a re-analysis of the deposited data

Results flagged for a closer look

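The interaction term of the quasi-binomial F test was taken on the log-odds scale, with Benjamini-Hochberg adjustment over all genes. By this term the change made by W796A differed between a WT and a W465A background for 6 members. These are 6 of the 101 members, against 37.5% of all genes, and limma, the fit of the groups compared and the offset for the level of each library each called 0 members. In pooled levels the difference of differences was 26.6 points at Krt28, 13.9 points at Krt10, 30.2 points at Krt39, 37.2 points at Krtap4-13, 26.5 points at Krt13 and 30.9 points at Krt42. Of these, 5 lie in the Krt cluster of chromosome 11 and Krtap4-13 in the Krtap cluster beside it, and the Krt cluster of chromosome 15 had none of its 26 genes called. The share of calls on chromosome 11 differed between libraries, as given above, and its part in these results was not tested. Each of the 6 lost its call in some of the 18 fits that left out 1 library, from 5 fits for Krt28 to 14 for Krtap4-13.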

How the results depend on the processing

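No member was called in any fit run for W796A against WT, W464A/W465A against W465A, or W464A/W465A/W796A against W464A/W465A. Counts are given below against WT in this order: W465A first, then W464A/W465A, then W465A/W796A, last the triple substitution W464A/W465A/W796A. CpGs with at least 5 reads left 62 members tested and gave 62, 62, 23 and 62 calls (72.2%, 75.3%, 30.8% and 75.6% of all genes), and 23 for W465A/W796A against W465A (40.4% of all genes). Windows of 500 bp either side of the start left 56 tested and gave 48, 53, 11 and 54 (23.9%, 25.4%, 5.49% and 25.5% of all genes), then 1 against W465A (0.759%) and 0 for additivity (0.0125%). With the offset for the level of each library the counts were 34, 63, 18 and 65 (21.8%, 26.5%, 11.2% and 27.1% of all genes), then 0 and 0 (0.00497% and 0.691%). A minimum of 25 points gave 27 for W465A/W796A against WT (11.5% of all genes) and 5 against W465A (4.84%). Against W465A, limma gave 56 (65.1% of all genes) and edgeR 57 (64%). For additivity, limma gave 0 and the fit of the groups compared gave 0, each at 0% of all genes. Apart from the fewer members tested in the first pair of settings, the cause of these shifts was not tested.

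Leaving out 1 library gave 87 to 99, 95 to 99, 0 to 85 and 96 to 99 calls against WT, 0 to 66 against W465A and 0 to 45 for additivity. With the replicate number as a block the counts were 99, 99, 45 and 99, then 35 and 5. The shares of all genes for these counts are not given here, so whether the shifts are particular to the members cannot be told. The block on WT and W796A alone was added after seeing the data.

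With the offset, differences from WT changed direction for W465A at Krt7 (2.03 points), Krt8 (1.76), Krt18 (1.70), Krt19 (3.59), Krt77 (3.36), Krt222 (0.194) and Krtap17-1 (0.312). They did so for W464A/W465A at Krt8 (1.14) and Krt19 (2.11), for W465A/W796A at Krt19 (0.412), and for W464A/W465A/W796A at Krt7 (0.171), Krt8 (0.0204), Krt18 (3.40), Krt19 (4.71) and Krt10 (0.574). W465A/W796A against W465A did so at Krt18 (-0.966) and Krt19 (-4.41), and in the 500 bp windows at Krt18 (-1.56). The cause was not tested.

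Cluster levels moved by more than 1 SD in the cases that follow. With at least 5 reads, the chromosome 15 Krt cluster was at 42.0% in W465A/W796A, and the chromosome 1 Krtap cluster at 15.4% in W464A/W465A/W796A. The chromosome 7 Krtap cluster was then at 29.6% in W465A and 50.7% in W465A/W796A, that of chromosome 10 at 60.3% in W465A/W796A, 34.5% in W464A/W465A and 30.1% with the triple substitution, and that of chromosome 11 at 17.1% in W464A/W465A/W796A. That of chromosome 16 was at 45.1% in W465A, 59.9% in W465A/W796A, 35.4% in W464A/W465A and 34.6% with the triple substitution. Gene bodies alone left 3 usable CpGs in the chromosome 7 cluster and 2 in that of chromosome 10. There the chromosome 7 cluster was at 61.4% in WT, 20.8% in W465A/W796A, 8.89% in W464A/W465A and 9.06% with the triple substitution. That of chromosome 10 was at 57.0% in WT, 59.2% in W796A, 22.9% in W465A, 16.2% in W465A/W796A, 7.25% in W464A/W465A and 3.37% with the triple substitution. That of chromosome 11 was at 16.7% in W464A/W465A/W796A and that of chromosome 16 at 49.8% in W465A/W796A.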
